A study of Mus musculus with 8 samples.

Results

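Semaphorins, their plexin receptors and their neuropilin co-receptors were followed in triceps muscle of Nf1Prx1 and control mice. Members were taken by gene symbol, as the semaphorins of classes 3 to 7, the plexins, the neuropilins and the plexin domain containing genes. The symbols gave 33 genes of the 19938 measured, of which 20 were semaphorins, 9 plexins, 2 neuropilins and 2 plexin domain containing genes. The symbols themselves use no level, but the family was selected on earlier log2 differences of this same comparison, so its counts and p values are a description and nothing is read from their share. All 33 had a value on every array, and no filter on low values was applied.

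The study profiled triceps from 4 Nf1Prx1 mutant mice and 4 wild-type control mice, all 3 months old and fed standard chow. Each animal gave the RNA for its own Affymetrix Mouse Gene 1.0 ST array. Its title names a requirement for neurofibromin, the Ras GTPase-activating protein encoded by Nf1, in skeletal muscle development. Nf1Prx1 denotes a conditional loss of Nf1 under a Cre driven by a Prx1 limb enhancer, which acts in the mesenchyme of the limb bud, so cells outside that lineage keep Nf1. The controls are labelled wild type, and whether they carry Cre or an unrecombined allele is not given in the sources used here. Whole muscle was used, so fewer cells of a type and less RNA per cell cannot be told apart in any value that follows.

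Semaphorins are secreted or membrane-bound guidance proteins that steer axons, vessels and immune cells. They bind plexins, whose intracellular domain switches off small GTPases of the Ras and Rap family, and the secreted class 3 semaphorins usually need neuropilins to form the receptor. In muscle and its surroundings the family is known for guiding motor axons, shaping capillaries and signalling at the neuromuscular junction.

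Levels are log2 values per gene and were compared for a given gene across arrays, never between genes. Differences are Nf1Prx1 minus control on the log2 scale, with 4 arrays in each group. Without a replicate term limma called 0 of 19938 genes after adjustment, and 2709 genes (13.6%) had an unadjusted p under 0.05. The arrays carry numbers from 1 to 4 in both groups. Deviations of same-numbered arrays correlated at 0.296 to 0.714, and those of other arrays at -0.531 to 0.303. The fit was therefore repeated with the number as a block (the paired fit). The paired fit called 1667 genes, or 8.36% of those tested, of which 3.36% were higher and 5.0% lower in Nf1Prx1. The fit without the block was planned as the main one, with the block as an alternative. Below, a gene "rose" or "fell" only if it passed at an adjusted p of 0.05 in the paired fit, and both adjusted p values are given. Because the pairing was read from the data that were then tested, its p values can come out too low.

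The muscle gene Ckm, encoding creatine kinase, lay at 13.70 to 13.95 in Nf1Prx1 and at 13.91 to 14.00 in control arrays. Nf1 itself was at 8.81, 8.63, 8.73 and 8.72 in Nf1Prx1 triceps, against 8.82, 8.92, 8.98 and 8.69 in control triceps. The groups overlapped, and the difference of -0.13 gave a two-sided exact permutation p of 0.171, so the level of the whole transcript did not separate the labels. Arrays Nf1Prx1 1 and control 1 stood apart. Ucp1, the uncoupling protein of brown fat, was at 9.75 in Nf1Prx1 1 and 10.18 in control 1, and between 6.01 and 6.24 in the others. The Y-linked gene Eif2s3y was high in Nf1Prx1 1 and 2 and in control 1 and 3, so numbers 2 and 3 join arrays that differ in sex-linked transcripts.

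Of the 33 members, 0 passed without the block. An unadjusted p under 0.05 was found there for 10 (30.3%, against 13.6% of all genes), 6 higher and 4 lower in Nf1Prx1. In the paired fit 6 members (18.2%) passed, against 8.36% of all genes. The family was selected on this same comparison, so nothing is read from these shares. The semaphorins Sema5a and Sema4a, the plexin Plxnc1 and the plexin domain gene Plxdc2 rose, while the semaphorins Sema3c and Sema6c fell. Arrays of the groups did not overlap for 6 members. Of these, Sema5a, Sema4a, Sema4b, Plxnb2 and Plxdc2 were higher, against a background of 2.58% of all genes, and Sema3c was lower, against 6.04%. The mean was higher in Nf1Prx1 for 20 members (60.6%) and for 41.5% of all genes, with a median difference of 0.06 over the members and -0.04 over all genes. The 27 members that did not pass had differences between -0.37 and 0.42.

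**Figure D1:**
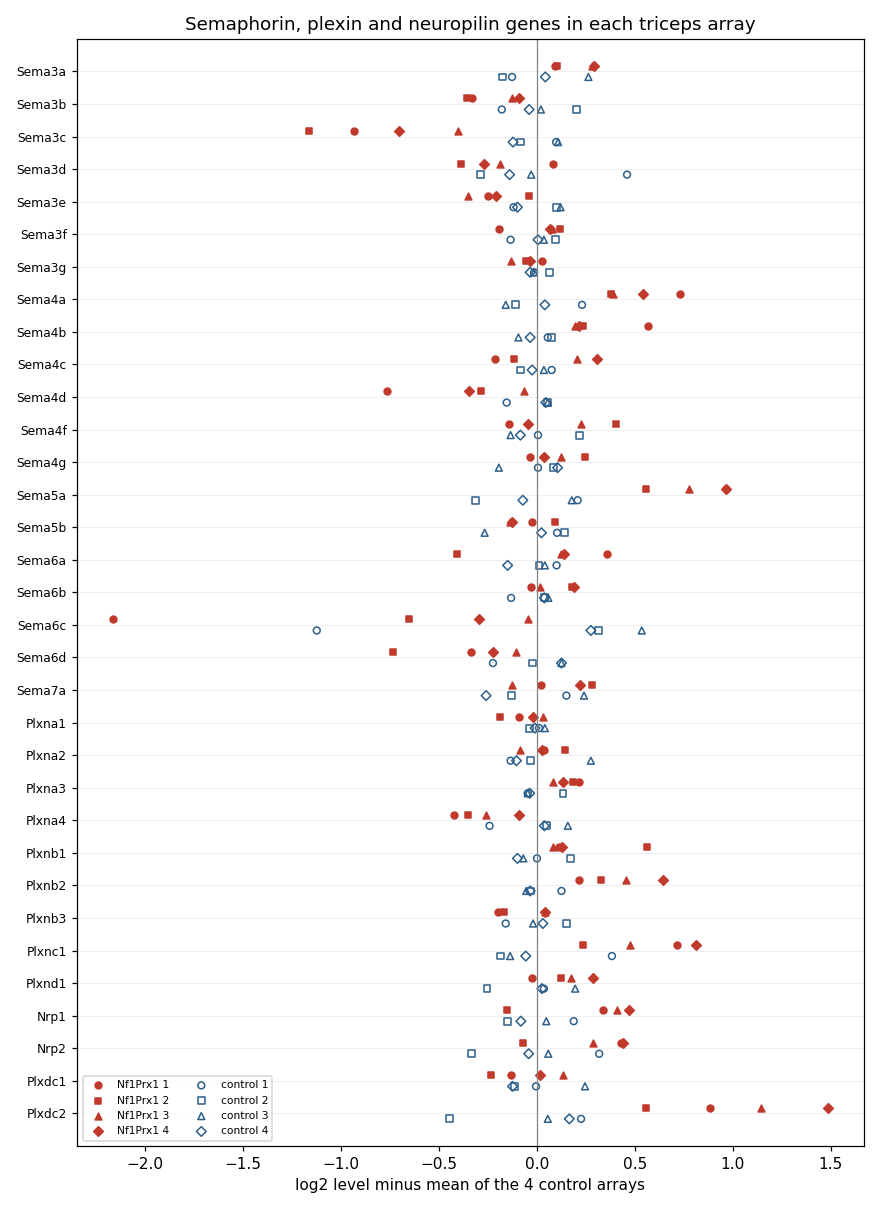
Log2 level of each of the 33 members on each array, minus the gene's control mean (x axis), with Nf1Prx1 arrays as filled points above the open control points of the same gene. Plxdc2 and Sema5a lie to the right on all 4 Nf1Prx1 arrays and Sema3c to the left, while most other members overlap between the groups.

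**Figure D2:**
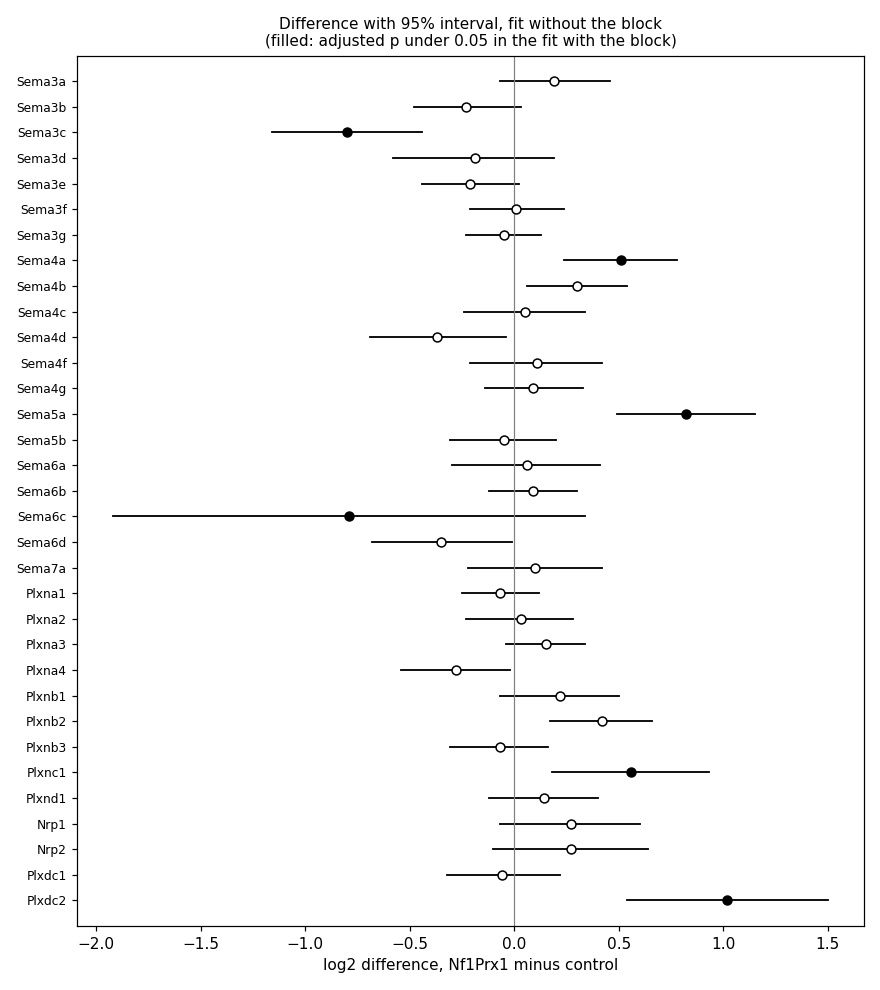
Difference in log2 level, Nf1Prx1 minus control (x axis), for each of the 33 members, with the 95% interval of the fit without the block (lines) and filled points for the 6 members that passed in the paired fit. The points range from -0.80 for Sema3c to 1.02 for Plxdc2, and the interval of Sema6c reaches from -1.92 to 0.34.

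Among the ligands, Sema5a had the largest difference. It encodes a transmembrane semaphorin with thrombospondin repeats, which bind proteoglycans, and is a known ligand of plexin B3. Its level was 9.06, 8.65, 8.87 and 9.06 in Nf1Prx1 triceps, against 8.30, 7.78, 8.27 and 8.02 in control triceps. Every Nf1Prx1 array lay above every control array. Sema5a rose by 0.82 (SE 0.15, 95% interval 0.49 to 1.15), or 1.77-fold, with an adjusted p of 0.125 without the block and 0.00857 in the paired fit. Its class mate Sema5b differed by -0.05 (95% interval -0.31 to 0.20), and Plxnb3, the receptor, by -0.07 (95% interval -0.31 to 0.16).

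Sema3c fell. It encodes a secreted semaphorin that signals through neuropilins with class A plexins or plexin D1, and is known for its part in the outflow tract of the heart. It was at 8.89, 8.66, 9.42 and 9.12 in Nf1Prx1 triceps, against 9.92, 9.74, 9.93 and 9.70 in control triceps. All 4 Nf1Prx1 arrays lay below all control arrays, and the control arrays were close together (SD 0.12, against 0.32 in Nf1Prx1). The difference was -0.80 (SE 0.16, 95% interval -1.16 to -0.44), 1.74-fold lower, with an adjusted p of 0.125 without the block and 0.0158 in the paired fit. The numbered pairs differed by -1.03, -1.08, -0.51 and -0.57.

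The plot of the called members by array shows these values. Promoters of Sema5a and Sema3c are printed because these ligands had the largest differences in opposite directions. They cover 250 bases before to 50 after the RefSeq start in GRCm38.p6, and both are on the plus strand, Sema5a at chr15:32244563-32244862 and Sema3c at chr5:17574566-17574865. Capitals mark 2 motifs searched on both strands, the E-box CANNTG and the GC box GGGCGG.
Sema5a: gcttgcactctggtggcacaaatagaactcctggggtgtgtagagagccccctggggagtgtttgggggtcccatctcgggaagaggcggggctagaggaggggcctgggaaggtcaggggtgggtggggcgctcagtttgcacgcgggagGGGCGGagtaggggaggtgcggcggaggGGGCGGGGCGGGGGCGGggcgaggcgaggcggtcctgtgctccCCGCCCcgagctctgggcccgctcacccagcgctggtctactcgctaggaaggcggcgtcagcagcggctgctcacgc
Sema3c: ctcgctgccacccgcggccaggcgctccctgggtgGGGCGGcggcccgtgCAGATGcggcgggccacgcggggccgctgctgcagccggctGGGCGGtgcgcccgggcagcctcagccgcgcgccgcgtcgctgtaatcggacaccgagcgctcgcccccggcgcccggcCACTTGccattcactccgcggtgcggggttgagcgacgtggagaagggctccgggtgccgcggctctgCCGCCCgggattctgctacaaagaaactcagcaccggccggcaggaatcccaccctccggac
Both are richer in G and C than the median promoter (52.7%), at 71.3% for Sema5a and 75.7% for Sema3c. The Sema5a window held 5 GC boxes and 0 E-boxes, and the Sema3c window held 3 GC boxes and 2 E-boxes, with no base shared between the motifs. Of the 32851 promoters in the table, 35.7% held a GC box and 72.3% an E-box. Searched for on both strands as well were TEAD (GGAATG, in 14.7% of all promoters), AP-1 (TGANTCA, 7.81%), ETS (CCGGAAG, 8.86%) and SMAD (CAGACA, 21.0%), and these letters occur in neither window. The table matched 26 members with 37 promoters, and 27 of these 37 held a GC box and 21 an E-box.

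**Figure D3:**
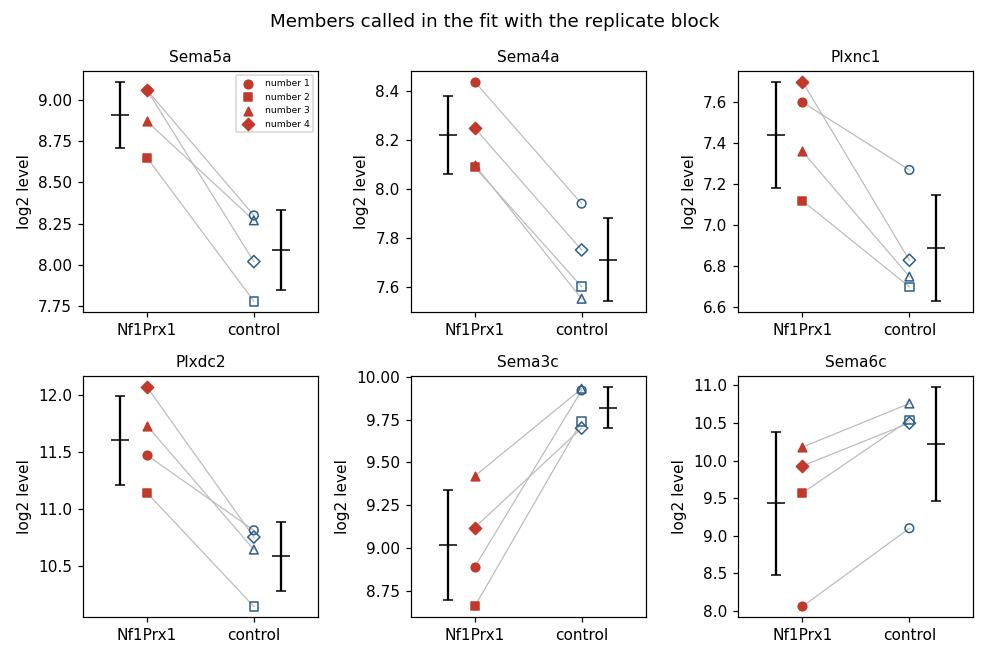
Log2 level (y axis, not starting at 0) of the 6 members that passed in the paired fit, with Nf1Prx1 arrays left and control arrays right in each panel, lines joining arrays of the same number and bars for mean ± SD (n = 4). Every line of Sema5a, Sema4a, Plxnc1 and Plxdc2 is higher at the Nf1Prx1 end, and every line of Sema3c and Sema6c is lower there.

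The other class 3 semaphorins did not pass. Sema3a, the motor axon repellent, was 0.19 higher (95% interval -0.07 to 0.46). Sema3e, which binds plexin D1 without a neuropilin, differed by -0.21 (95% interval -0.44 to 0.02), and Sema3b by -0.23 (95% interval -0.48 to 0.03), each lower in 4 of 4 numbered pairs. Sema3d differed by -0.19, Sema3f by 0.01 and Sema3g by -0.05. Sema3d, Sema3a, Sema3e and Sema3c lie in this order on chromosome 5 in RefSeq, with 0, 3 and 15 other protein-coding genes between neighbours. Along that stretch the differences were thus -0.19, 0.19, -0.21 and -0.80, so Sema3a ran opposite to the others. The median of the class was -0.19.

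Of the 6 class 4 semaphorins, which are membrane proteins with an immunoglobulin domain, 5 had a higher mean in Nf1Prx1 and 1 passed. Sema4a, which is found on dendritic cells and T cells, was at 8.44, 8.09, 8.10 and 8.25 in Nf1Prx1 triceps, against 7.94, 7.60, 7.55 and 7.75 in control triceps. The groups did not overlap, and the numbered pairs differed by nearly the same amount, 0.50, 0.49, 0.55 and 0.51. Sema4a rose by 0.51 (SE 0.12, 95% interval 0.24 to 0.78), or 1.43-fold, with an adjusted p of 0.151 without the block and 0.015 in the paired fit. Sema4b was at 8.30, 7.97, 7.93 and 7.95 in Nf1Prx1 and at 7.79, 7.81, 7.64 and 7.70 in control arrays. Its groups did not overlap either, with Nf1Prx1 1 the highest array, and the difference of 0.30 had adjusted p values of 0.262 without the block and 0.081 in the paired fit.

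Sema4d (CD100), the ligand of plexin B1 and of CD72 on B cells, went the other way. It was at 8.62, 9.10, 9.32 and 9.04 in Nf1Prx1 triceps, against 9.23, 9.44, 9.44 and 9.43 in control triceps. Only Nf1Prx1 3 reached into the control range. The difference of -0.37 (95% interval -0.69 to -0.04) did not pass, with adjusted p values of 0.315 without the block and 0.064 in the paired fit. It passed in the paired fit once arrays were centred on their median (adjusted p 0.0451) or all clusters of a gene were averaged (0.0463). A second, dimmer cluster of Sema4d was at 8.05, 8.98, 9.15 and 9.01 in Nf1Prx1 and at 8.95, 9.44, 9.48 and 9.33 in control arrays, and there 3 of the Nf1Prx1 arrays lay above control 1. Sema4c, Sema4f and Sema4g differed by 0.05, 0.11 and 0.09.

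In class 6, transmembrane semaphorins that signal to class A plexins, Sema6c fell in the paired fit. Its level was 8.06, 9.57, 10.18 and 9.93 in Nf1Prx1 triceps, against 9.10, 10.54, 10.76 and 10.5 in control triceps. Array 1 was by far the lowest of its group in both groups, and the ranges overlapped only through control 1. Within numbered pairs Sema6c was lower in 4 of 4, by -1.04, -0.97, -0.58 and -0.57. The mean difference was -0.79 (SE 0.50 without the block and 0.11 with it), with an adjusted p of 0.538 without the block and 0.0132 in the paired fit, so this call rests on the pairing. Single arrays moved it widely, to -0.33 without Nf1Prx1 1 and to -1.17 without control 1, and without both arrays numbered 1 it was -0.71. The muscle fibre markers were likewise lowest on array 1 in Nf1Prx1 (12.55, against 12.98 to 13.32 on the others) and in control (13.11, against 13.27 to 13.30), and their part in the result was not tested.

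Sema6d, a ligand of plexin A1 known from heart development in the chick, was at 9.01, 8.61, 9.24 and 9.12 in Nf1Prx1 and at 9.12, 9.32, 9.47 and 9.47 in control arrays. The groups overlapped at control 1, and the difference of -0.35 did not pass (adjusted p 0.351, and 0.102 in the paired fit). Sema6a and Sema6b differed by 0.06 and 0.09. Sema7a, anchored to the membrane by a lipid and bound by plexin C1 and integrins, was at 8.75, 9.01, 8.60 and 8.95 in Nf1Prx1 and at 8.88, 8.60, 8.97 and 8.47 in control arrays. The groups were interleaved, with a difference of 0.10 (95% interval -0.22 to 0.42) that turned to -0.03 without the arrays numbered 4.

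Among the plexins, Plxnc1 rose. Plexin C1 is the receptor of Sema7a and is found on neutrophils, monocytes and dendritic cells. Its level was 7.60, 7.12, 7.36 and 7.70 in Nf1Prx1 triceps, against 7.27, 6.70, 6.75 and 6.83 in control triceps. The groups overlapped only because control 1 lay above Nf1Prx1 2. The difference was 0.56 (SE 0.17, 95% interval 0.18 to 0.93), or 1.47-fold, with an adjusted p of 0.204 without the block and 0.0263 in the paired fit. Without both arrays numbered 1 the difference was 0.63. Those arrays also had the highest level of the neutrophil list, 9.64 in Nf1Prx1 1 (6.69 to 7.27 on the others) and 9.19 in control 1 (6.65 to 6.81 on the others), and its part in the Plxnc1 result was not tested.

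Plxnb2, a receptor of class 4 semaphorins with broad expression, was at 8.60, 8.71, 8.84 and 9.03 in Nf1Prx1 triceps, against 8.51, 8.35, 8.33 and 8.35 in control triceps. All Nf1Prx1 arrays were above all control arrays, although Nf1Prx1 1 exceeded control 1 by only 0.10. The difference of 0.42 (95% interval 0.17 to 0.66) missed the threshold, with adjusted p values of 0.173 without the block and 0.0613 in the paired fit. It passed in the paired fit after quantile normalization (adjusted p 0.0468), without dim genes (0.047), with array weights (0.032) and without the arrays numbered 1 (0.0499), so its call depends on the setting. Plxnb1, the receptor of Sema4d, was 0.22 higher (adjusted p 0.167 in the paired fit).

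Plxna4, which relays class 3 and class 6 signals in axons, was at 7.84, 7.91, 8.00 and 8.17 in Nf1Prx1 and at 8.02, 8.31, 8.42 and 8.30 in control arrays. Only Nf1Prx1 4 lay above the lowest control array, control 1. The difference of -0.28 did not pass (adjusted p 0.336, and 0.0995 in the paired fit). Plxna1, Plxna2 and Plxna3 differed by -0.07, 0.03 and 0.15. Plxnd1, the endothelial receptor of Sema3e, was at 9.50, 9.65, 9.70 and 9.81 in Nf1Prx1 and at 9.56, 9.27, 9.72 and 9.55 in control arrays, overlapping with a difference of 0.14 (95% interval -0.12 to 0.40).

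The neuropilins bind class 3 semaphorins and also vascular endothelial growth factors. Nrp1 was at 9.86, 9.37, 9.93 and 9.99 in Nf1Prx1 triceps, against 9.71, 9.37, 9.57 and 9.44 in control triceps. The array of lowest level was number 2 in both groups, and the groups overlapped. The difference of 0.27 (95% interval -0.07 to 0.60) did not pass, with adjusted p values of 0.473 and 0.175 in the paired fit. Nrp2 had the same mean difference, 0.27 (95% interval -0.10 to 0.64), and was higher in 4 of 4 numbered pairs without passing (adjusted p 0.114 in the paired fit). The 7 measured growth factors and receptors of the VEGF family that share neuropilins had a median difference of -0.12, and 0 rose and 0 fell. Their differences ranged from -0.29 to 0.16.

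Plxdc2 had the largest difference of all members. It encodes a transmembrane protein with a plexin-like domain that is known as a receptor of pigment epithelium-derived factor, and it is not an established semaphorin receptor. Its level was 11.47, 11.14, 11.73 and 12.07 in Nf1Prx1 triceps, against 10.81, 10.14, 10.64 and 10.75 in control triceps. Every Nf1Prx1 array was above every control array, and array 2 was the lowest in both groups. Plxdc2 rose by 1.02 (SE 0.21, 95% interval 0.54 to 1.5), or 2.03-fold, with an adjusted p of 0.129 without the block and 0.00788 in the paired fit. Its relative Plxdc1, first described in tumour endothelium, differed by -0.06 (95% interval -0.32 to 0.22).

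Leaving out numbered pairs changed the calls more than the differences. Without the arrays numbered 4 the paired fit called 50 genes in place of 1667, and 0 of the 6 members passed, at adjusted p values of 0.0566 to 0.0992. The differences in that fit were 0.92 for Plxdc2, 0.74 for Sema5a, 0.51 for Sema4a, 0.45 for Plxnc1, -0.88 for Sema3c and -0.86 for Sema6c. Without the arrays numbered 3 it called 206 genes, and 4 of the 6 members passed while Sema4a and Plxnc1 did not. Without the arrays numbered 1 or those numbered 2 all 6 passed.

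Markers of other cell types differed alongside. In the adipocyte list 9 of 9 genes had a higher mean in Nf1Prx1 and 8 rose. Mean levels were 10.24 to 12.37 in Nf1Prx1 and 9.0 to 11.21 in control arrays. The 11.21 was control 1, and the other control arrays lay at 9.0 to 9.16. Of the fibroblast and fibro-adipogenic progenitor list 8 of 9 were higher and 4 rose, at 10.20 to 10.92 in Nf1Prx1 and 9.86 to 10.80 in control arrays. Control 1 gave the 10.80, and the other control arrays lay at 9.86 to 10.20. The macrophage list was higher for 10 of 10 genes and 4 rose, at 8.49 to 8.99 in Nf1Prx1 and 7.99 to 8.90 in control arrays. Again control 1 was the highest control array, at 8.90, with the others at 7.99 to 8.26. The endothelial list had 3 of 10 genes higher and 0 rose, at 8.76 to 9.31 in Nf1Prx1 and 9.07 to 9.39 in control arrays, and the Schwann cell list had 5 of 6 higher and 0 rose, at 8.22 to 8.56 in Nf1Prx1 and 8.09 to 8.31 in control arrays. The part of these cell types in the differences of Sema5a, Sema4a, Plxnc1 and Plxdc2 was not tested. The slow fibre list was lower for 7 of 7 genes and 4 fell, at 7.91 to 10.20 in Nf1Prx1 and 9.45 to 10.22 in control arrays. Only Nf1Prx1 3, at 10.20, lay within the control range, with the other Nf1Prx1 arrays at 7.91 to 8.30. The part of slow fibres in the differences of Sema3c and Sema6c was not tested. The lowest value of any marker on any array was 5.18, in the T and B lymphocyte list. No limit of detection was set, so these levels do not show which markers were expressed.

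Further lists of the pathway are read against the 8.36% of all genes that passed in the paired fit, and no list was tested as such. Of 16 further receptors and co-receptors 2 rose and 0 fell, with a median difference of 0.14. These were Ptprc (CD45), a leukocyte phosphatase reported to associate with Sema4d, at 0.83 (adjusted p 0.327 without the block and 0.00881 in the paired fit), and Tyrobp, the adaptor that joins plexin A1 and Trem2, at 0.66 (adjusted p 0.542 without the block and 0.0198 in the paired fit). Both are leukocyte genes. The macrophage list lay at 8.49 to 8.99 in Nf1Prx1 and at 7.99 to 8.90 in control arrays. Its ranges overlapped only through control 1, at 8.90, with the other control arrays at 7.99 to 8.26. Its part in the Ptprc and Tyrobp results was not tested.

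Of 20 genes of plexin GTPase signalling 1 rose and 1 fell, with a median of 0.03. Rras2, a Ras protein of the group that plexins switch off, was at 8.80, 8.41, 8.62 and 8.57 in Nf1Prx1 triceps, against 9.15, 9.20, 9.23 and 8.97 in control triceps. The groups did not overlap, and Rras2 fell by 0.54 (adjusted p 0.125 without the block and 0.0234 in the paired fit). Cfl1, the actin-severing cofilin, rose by 0.58 (adjusted p 0.434 without the block and 0.0212 in the paired fit), with overlapping groups.

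Of 19 collapsin response mediators, MICAL oxidases, kinases and adaptors 1 rose and 0 fell. This was Sh3bp1, a Rac GTPase-activating protein that binds plexin D1, at 0.33 (adjusted p 0.169 without the block and 0.0486 in the paired fit), and the list ranged from -0.25 to 0.33. Of 8 proteases that process semaphorins 1 rose and 1 fell, with a median of -0.09. The membrane protease Mmp14, known to shed Sema4d, rose by 0.54 (adjusted p 0.262 without the block and 0.0394 in the paired fit), and Adamts1, known to cut Sema3c, fell by 0.55 (adjusted p 0.314 without the block and 0.0314 in the paired fit).

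The authors' deposited table resolves the same genes into probe sets, each covering a short stretch of a transcript. Its statistics fit 5 arrays a group although 4 are stated, so it was not matched to the arrays above and its values are the authors'. It holds 794 probe sets of the 33 members among 234873. Of the 794 in the authors' deposited table, 482 were higher and 312 lower in Nf1Prx1, with a median difference of 0.11, against -0.03 over all probe sets. An unadjusted p under 0.05 was listed for 163 of them, 125 higher and 38 lower, where the background is 14.7% of all probe sets. After adjustment here over all 234873, 5 passed as higher (background 0.0728%) and 0 lower (background 0.0426%). The authors' higher list (0.765% of all probe sets) held 30 probe sets of 7 members, and their lower list (0.367%) held 4 of 2 members. Lowest and highest values of the groups did not overlap for 48 higher probe sets (background 1.83%) and 7 lower ones (background 1.38%).

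Sema5a was higher along nearly its whole length. Of its 27 probe sets in the authors' deposited table, 26 were higher, 16 were in the higher list and the median difference was 1.12. The 10th probe set had 9.1 in Nf1Prx1 (8.9 to 9.2), against 7.6 in control (7.4 to 7.7), which is 2.83-fold with an adjusted p of 0.0148 computed here from the authors' deposited F. The 8th had the largest difference in the authors' deposited table, 3.41-fold, and only the 3rd was not higher, at -0.05.

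Plxdc2 was one-sided throughout. All 16 of its probe sets were higher in the authors' deposited table, 8 were in the higher list, and the differences ran from 0.67 to 1.63. The 14th had 12.4 in Nf1Prx1 and 11.2 in control in the authors' deposited table, 2.35-fold (adjusted p 0.0284). These 2 genes supplied all 5 probe sets that passed adjustment.

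For Sema3c 16 of 18 probe sets were lower in the authors' deposited table, 3 were in the lower list and the median difference was -0.58. The 18th had 8.8 in Nf1Prx1 and 9.6 in control in the authors' deposited table. The 14th went the other way by 1.16, but with wide spreads in the authors' deposited table (7.4 ± 0.90 in Nf1Prx1, against 6.2 ± 1.32 in control).

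Several other members were one-sided along their probe sets as well. In the authors' deposited table all 17 probe sets of Nrp1 were higher, with a median of 0.54, and so were 22 of 23 of Nrp2 and all 15 of Sema4a. Higher too were 28 of 31 of Plxnc1 and 35 of 38 of Plxnb2, while 22 of 25 of Sema6c and 15 of 18 of Sema4d were lower. For Sema6c 0 of the 25 had an unadjusted p under 0.05 (14.7% of all probe sets did) and 0 were in the lower list. Such a p was listed for 4 probe sets of Nrp1, 3 of Nrp2, 11 of Sema4a, 14 of Plxnc1, 13 of Plxnb2 and 7 of Sema4d. Probe sets of a gene share the same RNA and are not replicates. The median over probe sets lay on the same side as the difference of the gene by array for 28 of 33 members.

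**Figure D4:**
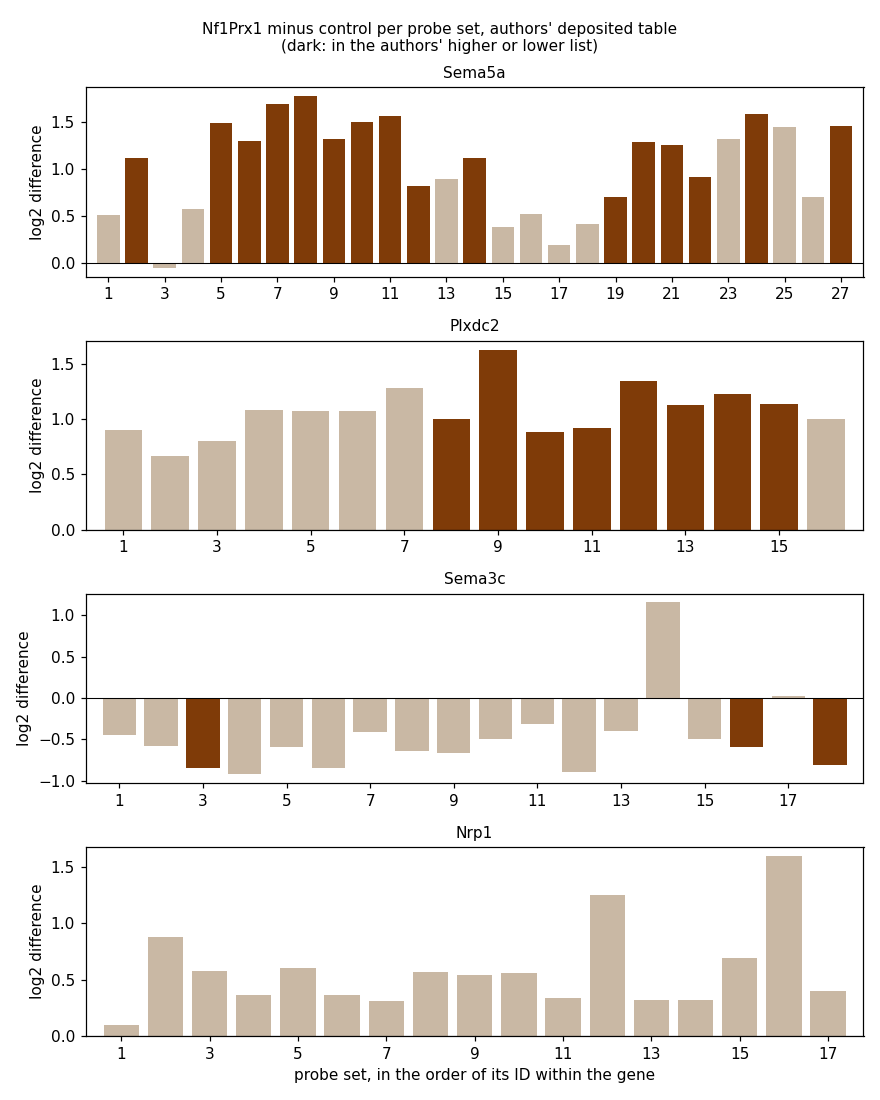
Difference in log2 level, Nf1Prx1 minus control (y axis), for each probe set of Sema5a, Plxdc2, Sema3c and Nrp1 in the authors' deposited table, in the order of the probe set IDs (x axis), with dark bars for probe sets in the authors' lists. Bars of Plxdc2 and Nrp1 are all above 0, Sema5a has 26 of 27 above 0, and Sema3c has 16 of 18 below 0.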

How the data were processed

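RNA from the triceps of 8 mice was measured on 8 arrays. Per the submitters' processing notes, the authors made log2 values per transcript cluster by RMA in the Affymetrix Expression Console (versions not given in the sources used here). The authors' deposited table holds group statistics of log2 values per probe set, with an unadjusted p-value, a ratio and signed fold of control over mutant, and F and T scores, per the file headers. Signs were turned here to Nf1Prx1 minus control.

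Of 35556 clusters, 21789 had 1 symbol, and the cluster of highest mean stood for each of 19938 genes. The 2 groups of arrays were fitted in limma 3.58.1 (R 4.3.3; lmFit, eBayes, two-sided), with Benjamini-Hochberg adjustment over all genes. Deviations of same-numbered arrays correlated at 0.714, 0.574, 0.391 and 0.296 and of other arrays at -0.531 to 0.303. All same-numbered pairs passed 0.1, so the replicate number was also fitted as a block. Some pairs of unlike number passed 0.1 too, with Nf1Prx1 4 and control 3 at 0.303, above the 0.296 of the arrays numbered 4. This limit therefore does not single out same-numbered arrays. The pairing comes from the data, not from the labels. Each deposited p-value follows from its F with 8 residual degrees of freedom, so p was recomputed from F for the adjustment. Array medians were 7.565 to 7.673, and the number of arrays limits the precision. Fits were tested on simulated data. Of 100 genes changed by 1.0, the fit with the block recovered 82 on arrays simulated as paired and 24 on unpaired ones. Without the block these were 74 and 70. Of 100 genes changed by 0.5, the fit with the block recovered 20 and 0, and the fit without it 21 and 17. The simulated pairing was set in advance, so a pairing read from the data was not tested. Values on every array are given for Nf1, for members with an adjusted p under 0.05 in either fit or an unadjusted p under 0.05, and for the smallest p in each class. Of the pathway lists, called genes are named, up to 4 a list. Members, lists and rules were chosen with earlier results of these data known. Sequences are RefSeq's (GRCm38.p6), searched with Python 3.11.15, and plots used matplotlib 3.10.9. Alternatives changed the normalization, filter, cluster rule, prior, array weights, arrays included and a sex-linked covariate.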

Additional observations from a re-analysis of the deposited data

Results flagged for a closer look

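Of 68 groups of 4 arrays (the members and Nf1 in each genotype), 8 had an array far from the other 3 by Dixon's test, where chance gives about 5% of groups. In 6 of the 8 the distant array carried number 1. Sema6c was at 9.10 in control 1 and at 10.5 to 10.76 in the other control arrays. Sema4d was at 9.23 in control 1, against 9.43 to 9.44, and Sema6b at 7.77 in control 1, against 7.94 to 7.96. Plxnb2 was at 8.51 in control 1, against 8.33 to 8.35. Sema4b was at 8.30 in Nf1Prx1 1, against 7.93 to 7.97, and Sema3f at 8.07 in Nf1Prx1 1, against 8.33 to 8.38. The other two were number 2 arrays. Plxnb1 was at 8.34 in Nf1Prx1 2, against 7.86 to 7.91, and Plxna3 at 7.62 in control 2, against 7.44 to 7.45.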

How the results depend on the processing

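Genes called, 0 without the block, came to 1667 with the replicate block, 5 after quantile normalization, 3070 with array weights, 96 without both arrays numbered 1 and 0 to 3 without single arrays. With the block, leaving out a numbered pair gave 50 to 1202 genes. Members called, 0 without the block, came to 6 with the replicate block and 9 with array weights, and with the block 0 to 7 without a numbered pair. Sema5a, Sema4a, Plxnc1, Plxdc2, Sema3c and Sema6c passed in each of the 7 further settings run with the block, which were chosen after seeing the data, except that Plxnc1 was not tested once dim genes were left out. Of 163 probe sets of members at an unadjusted p under 0.05, 5 passed after adjustment and 34 met the authors' limits. Over 15 named genes and 28 alternatives, 2 of 418 differences reversed, both of Sema7a (range -0.03 to 0.26 without a pair or an array, with -0.003 without the arrays numbered 2). The differences of the other 14 kept their sign. Ranges were 0.72 to 0.96 for Sema5a, 0.86 to 1.27 for Plxdc2, -0.93 to -0.56 for Sema3c, 0.44 to 0.59 for Sema4a and 0.45 to 0.75 for Plxnc1. Sema6c had a wider range, -1.17 without control 1 to -0.33 without Nf1Prx1 1. Members beyond these 6 that passed under some alternative were Plxnb2 and Sema4d, as given above, and Nrp1, Nrp2, Sema4b and again Plxnb2 with array weights and no block (adjusted p 0.00768, 0.0204, 0.0382 and 0.00406). The cause of these shifts was not tested. Signal over background limits what the dimmer members can show, and 25 of 33 remained when dim genes were left out.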

Other observations

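Plxna3, a receptor of Sema3f, differed by 0.15 by array, yet neighbouring probe sets were in opposite lists of the authors' deposited table, the 1st lower by -0.97 and the 2nd higher by 0.74. The 8th probe set of Plxdc1 was in the authors' higher list at 1.11 while the gene differed by -0.06 by array. The 21st probe set of Sema6a was in the higher list of the authors' deposited table at 0.75, against 0.06 for the gene by array.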
